A study of Homo sapiens with 12 samples.

Results

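The transcripts described here encode the switch that admits cells to mitosis: the kinases CDK1 and CDK2, the inhibitory kinases WEE1 and PKMYT1, the activating phosphatases CDC25A, CDC25B and CDC25C, and the checkpoint kinase CHEK1. They were chosen by name, with earlier results of these data known. The study itself names WEE1 among the transcripts still quickly lost when NUP93 is knocked out. The 8 genes were taken from a table of 22379 genes in all 12 libraries. All 8 passed the filter on low values, an average of 10 or more without drug, which 13811 genes passed. The cells were U2OS, an established human osteosarcoma line, and their polyadenylated RNA was sequenced. Cas9 and a guide RNA were delivered transiently on one plasmid, and puromycin-selected cells were used as a pool, so a group is a mixture of edited and unedited cells and not a clone. The nontargeting guide gave the NONT control, and the other guides were directed at NUP93, a scaffold protein of the nuclear pore, or EXOSC5, part of the RNA exosome, the complex that trims and destroys RNA 3′ to 5′. Each genotype (NONT, NUP93-KO, EXOSC5-KO) was left untreated, which in the labels means DMSO, or was given 1 μM triptolide for 8 h, with 2 replicates in each of 6 groups. Triptolide blocks transcription initiation by RNA polymerase II and leads to degradation of its largest subunit. The study found that this degradation took some hours to complete. The treated libraries thus measure what is left of mRNA made before the drug or early in its presence.

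WEE1 and PKMYT1 hold CDK1 inactive by phosphorylating it near the ATP site. The CDC25 phosphatases remove those phosphates, and active CDK1 with cyclin B drives entry into mitosis, while CDK2 with cyclins E and A acts at the start of S phase and within it. CHEK1, switched on by ATR when replication stalls, restrains the CDC25 phosphatases and so works on the same side of the switch as WEE1. All of these proteins are regulated by phosphorylation and degradation as well as by mRNA level, and the data speak of mRNA alone.

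The values are on a scale set by ERCC spike-in RNAs that were added in proportion to the number of cells, so they are meant to follow mRNA per cell. Approximate depth was 8555180 to 11920900 reads per library, and the sum of all genes ran from 4897930 to 16445800 on the deposited scale. The widest gap between replicates was in the NONT untreated group, where the sum was 11320500 in replicate 1 and 16445800 in replicate 2, and every one of the 8 transcripts was higher in replicate 2. In the list of osteosarcoma and mesenchymal markers, VIM, SPARC, COL1A1 and CD44 had values of at least 2268 in every library, while COL1A2 lay between 4.05 and 42.0. No epithelial marker was above 69.7 in any library, and CD3E, a T cell marker, was listed at 0 in all 12. The labels do not say that replicates came from separate cultures, so p-values measure the spread between these libraries, which may be technical.

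The targeted genes were examined first. NUP93 was at 1753 and 2489 in untreated NONT libraries and at 1395 and 1432 in untreated NUP93-KO libraries, a log2 difference of −0.56 ± 0.20 (SE) that did not pass the threshold (adjusted p = 0.926). EXOSC5 was at 299 and 481 in untreated NONT and at 216 and 148 in untreated EXOSC5-KO, a log2 difference of −1.08 ± 0.29 with an adjusted p of 0.151. With libraries put on a common total or on the median of ratios, NUP93 (−0.45 and −0.49, adjusted p = 0.0498 and 0.0416) and EXOSC5 (−1.11 and −1.18, adjusted p = 0.00806 and 0.00501) passed, and on a common sum of mitochondrially encoded mRNAs EXOSC5 did (−1.46, adjusted p = 0.00544) and NUP93 did not (−0.50, adjusted p = 0.581). Without drug, both targets were lower in the cells with their own guide. Under triptolide NUP93 did not separate: 801 and 1019 with its guide, 1007 and 899 with the nontargeting guide. Treated EXOSC5 did, at 75.2 and 102 with its guide, where the nontargeting guide gave 266 and 208. Untreated NUP93 with the EXOSC5 guide was at 1805 and 1618. These lay above the NUP93-KO pair, and only replicate 2 lay below both untreated NONT libraries. A frameshift need not lower mRNA, so this check is partial.

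In untreated cells, the kinase at the centre of the switch was also its most abundant transcript. Levels are compared between genes per kilobase of the main annotated transcript. CDK1 lay between 796 and 1367 per kb over the 6 untreated libraries, CDC25B between 592 and 1029, CDK2 between 355 and 618, PKMYT1 between 308 and 654, CDC25A between 166 and 249, CHEK1 between 110.2 and 224, WEE1 between 77.6 and 125, and CDC25C between 73.1 and 135. CDK1 was above CDC25B, and CDC25B above CDK2, in 6 of 6 libraries. CDK2 was above PKMYT1 in 3 of 6 libraries and WEE1 above CDC25C in 3 of 6, so neither pair was ordered beyond its spread. CDC25A was above CHEK1 in 5 of 6. PKMYT1 exceeded WEE1 in every untreated library, so that of the mRNA for inhibitory kinases most was PKMYT1, and CDC25B was the most abundant of the phosphatases.

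**Figure D1:**
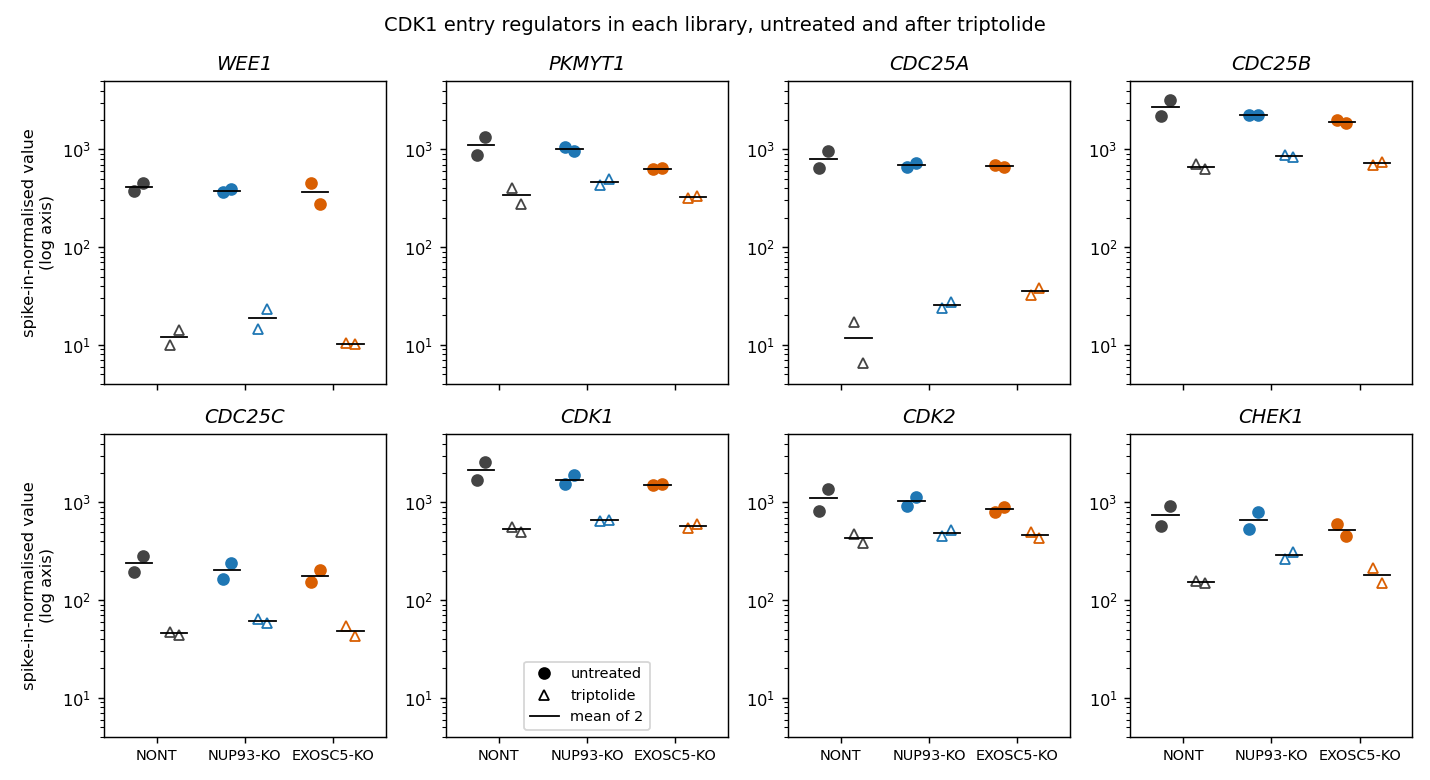
Each panel plots one gene in the 12 libraries, with the spike-in-normalised value on a log axis, genotypes along the horizontal axis, filled circles for untreated and open triangles for triptolide libraries, and a bar at the mean of 2 replicates. WEE1 and CDC25A drop below 40 after triptolide in every genotype, whereas CDC25B, CDK1, CDK2 and PKMYT1 stay above 270.

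After 8 h of triptolide the order changed. WEE1 and CDC25A, which oppose each other on CDK1, had fallen to a few percent of their untreated value, while the other 6 transcripts kept between 19.1% and 55.3%. The response of each gene is given as a log2 fold change on log2(value + 1), which understates the change of low genes. On the deposited scale the 8 transcripts were lower in all 3 genotypes, past the threshold of an adjusted p of 0.05, but PKMYT1 and CDK2 changed sign in at least one genotype when libraries were rescaled to a common total or by the median of ratios. A lower value is the rule under this drug: 90% of tested genes were called lower in NONT cells, 55.1% for NUP93-KO and 64.3% for EXOSC5-KO. The treated and untreated libraries of the 8 genes did not overlap in any genotype, as was the case, with the drug lower, for 94.8% (NONT), 79.1% (NUP93-KO) and 88% (EXOSC5-KO) of genes. The 8 calls in NONT are thus near the background, and the sizes of the losses are read beside the median gene, whose log2 fold change was −1.62 (NONT), −0.92 (NUP93-KO) and −1.08 (EXOSC5-KO).

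WEE1 (ENSG00000166483; GRCh38 chromosome 11, 9573670 to 9593457, plus strand, 11 exons) phosphorylates CDK1 and CDK2 in the nucleus. It was at 377 and 449 in untreated NONT libraries and at 9.90 and 14.2 after triptolide. In NUP93-KO it was at 365 and 394 without drug and at 14.6 and 23.1 with it. In EXOSC5-KO the untreated libraries, at 449 and 278, were the least even, and the treated ones were at 10.5 and 10.2. The treated values rest on roughly 11 to 29 reads per library, against 193 to 397 in untreated libraries. In NONT, WEE1 thus kept 2.91% of its untreated mean (2.20% to 3.76% over the 4 ratios of one treated to one untreated library), while NUP93-KO cells kept 4.97% (3.71% to 6.32%) and EXOSC5-KO cells 2.84% (2.26% to 3.76%). Its log2 fold changes were −5.004 ± 0.36 (SE), −4.29 ± 0.36 and −4.97 ± 0.36, with adjusted p-values of 3.77e-09, 6.28e-08 and 1.19e-08 in that order. Lower log2 fold changes than these were seen in 4.49%, 3.82% and 2.13% of tested genes.

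PKMYT1 (ENSG00000127564; chromosome 16, 2968024 to 2980479, minus strand, 9 exons), the membrane-bound relative of WEE1 at the endoplasmic reticulum and Golgi, did not share that loss. It was at 874 and 1348 in untreated NONT and at 404 and 274 after triptolide. NUP93-KO cells had 1053 and 959.6 before and 429.8 and 499 after the drug, and EXOSC5-KO cells 634 and 639 before and 317 and 331 after it. The share kept was 30.5% (NONT), 46.1% (NUP93-KO) and 50.9% (EXOSC5-KO). The log2 fold changes, −1.70, −1.12 and −0.97 (SE 0.24 each), lay close to those of the median gene, with 47.0%, 43.5% and 53.8% of genes lower, and under a common total or the median of ratios the change in EXOSC5-KO was −0.18 or 0.098, neither past the threshold.

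CDC25A (ENSG00000164045; chromosome 3, 48157146 to 48188417, minus strand, 15 exons), the phosphatase that acts on CDK2 at the start of S phase and on CDK1 at mitosis, also fell to a few percent. Untreated NONT libraries were at 639 and 956, and treated ones at 17.0 and 6.52, or roughly 28 and 13 reads. NUP93-KO libraries went from 652 and 729 to 23.8 and 27.3. EXOSC5-KO libraries went from 686 and 662 to 32.2 and 38.2. The 4 treated knockout libraries were all above both treated NONT libraries. Their sums of all genes were ordered likewise, 8006620 to 8791820 against 5937100 and 4897930. The share of all genes with this order was not counted. The share of CDC25A kept was 1.48% for NONT (0.682% to 2.66%), 3.70% for NUP93-KO (3.27% to 4.19%) and 5.22% for EXOSC5-KO (4.69% to 5.78%). Log2 fold changes were −6.07, −4.70 and −4.23 (SE 0.36 each), with adjusted p-values of 4.63e-10, 2.35e-08 and 5.86e-08, and 1.54%, 2.45% and 4.24% of genes had a lower one.

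CDC25B and CDC25C, the phosphatases associated with mitotic entry, fell far less than CDC25A. CDC25B (ENSG00000101224; chromosome 20, 3786772 to 3806121, plus strand, 16 exons) went from 2209 and 3208 to 704 and 626 in NONT. NUP93-KO libraries were at 2245 and 2270.3 without drug and 866 and 844 with it. EXOSC5-KO libraries were at 2004 and 1846 without drug and 691 and 748 with it. That left 24.6% (NONT), 37.9% (NUP93-KO) and 37.4% (EXOSC5-KO) of the untreated mean, with log2 fold changes of −2.002, −1.40 and −1.42 (SE 0.19 each). CDC25C (ENSG00000158402; chromosome 5, 138285269 to 138338355, minus strand, 14 exons) was the least abundant phosphatase per kb in untreated cells. It was at 194 and 283 in untreated NONT and 47.8 and 43.6 in treated NONT. NUP93-KO libraries had 163 and 239.6 without drug and 64.1 and 58.3 with it, and EXOSC5-KO libraries 153 and 202 without drug and 54.3 and 42.7 with it. CDC25C kept 19.1%, 30.4% and 27.3%, and its log2 fold changes were −2.34, −1.68 and −1.85 (SE 0.33 each), past the threshold under every scaling tried.

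Of the kinases themselves, CDK2 kept more than CDK1, whose share was close to that of CDC25B. CDK1 (ENSG00000170312; chromosome 10, 60778331 to 60794852, plus strand, 8 exons) went from 1706 and 2583 to 566 and 503 in NONT. It was at 1528 and 1895 without drug and 652 and 659.7 with it in NUP93-KO. In EXOSC5-KO it was at 1504 and 1527 without drug and 545 and 601 with it. CDK1 kept 24.9%, 38.3% and 37.8%, and the log2 fold changes were −1.97, −1.37 and −1.40 (SE 0.21 each). CDK2 (ENSG00000123374; chromosome 12, 55966781 to 55972789, plus strand, 7 exons) kept the largest share of the 8 in every genotype, 38.7%, 47.4% and 55.3%. Its libraries were at 824 and 1384 without drug and 469.5 and 385 with it in NONT. They were at 911 and 1146 without drug and 453 and 521 with it in NUP93-KO, and at 795 and 902 without drug and 504 and 434 with it in EXOSC5-KO. The log2 fold changes of CDK2, −1.33, −1.07 and −0.85 (SE 0.24 each), had adjusted p-values of 8.88e-05, 0.00113 and 0.00532. The call in EXOSC5-KO was lost without its treated replicate 2 (log2 fold change −0.75, adjusted p = 0.0502), and with libraries rescaled to a common total the change of CDK2 in NONT was 0.012.

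CHEK1 (ENSG00000149554; chromosome 11, 125625163 to 125676255, plus strand, 13 exons) overlaps STT3A on the same strand, so its values are uncertain to the extent that reads could not be assigned to one gene. NONT libraries were at 569 and 924 untreated and 158 and 151 treated. NUP93-KO libraries were at 531 and 790.3 untreated and 266 and 314 treated, and EXOSC5-KO libraries at 594 and 455 untreated and 213 and 150.1 treated. Treated and untreated libraries did not overlap in any genotype, and the treated NUP93-KO pair was above the other treated libraries. That pair also had the highest treated sums of all genes, 8223750 and 8791820, where the others ran from 4897930 to 8030580. How many genes share this order was not counted. The share kept was 20.7% (NONT), 43.98% (NUP93-KO) and 34.6% (EXOSC5-KO). Its log2 fold changes were −2.22, −1.16 and −1.53 (SE 0.28 each), and those in NUP93-KO and EXOSC5-KO no longer passed the threshold under the median of ratios, at −0.27 and −0.47. PKMYT1, CDC25C and CDK2 overlap protein-coding genes on the opposite strand, which strand-specific quantification separates.

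**Figure D2:**
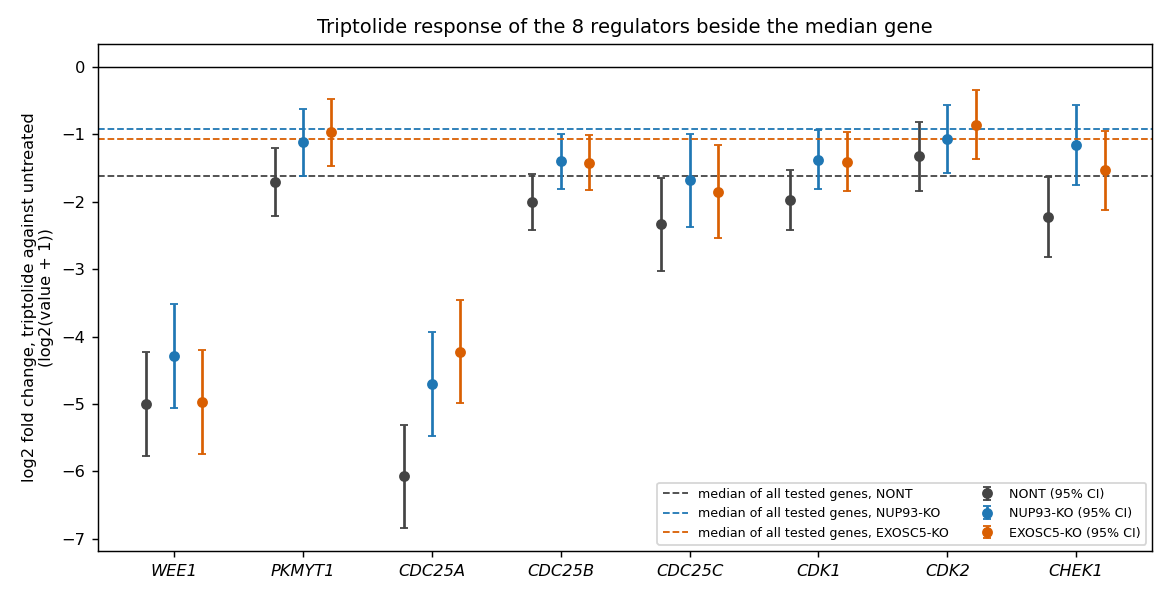
Points give the log2 fold change of each gene after triptolide in NONT, NUP93-KO and EXOSC5-KO on the deposited scale, with 95% confidence intervals from limma, and dashed lines mark the median of 13811 tested genes in each genotype. WEE1 and CDC25A lie between −4.23 and −6.07, far under the dashed lines, and the other 6 genes between −0.85 and −2.34, with CDK2 and PKMYT1 changing sign under some other scalings.

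The contrast between WEE1 and CDC25A and the rest can be seen within single libraries, where the scale cancels. WEE1 amounted to 0.192 to 0.407 of PKMYT1 per kb in untreated libraries and to 0.0141 to 0.0297 in treated ones, without overlap. CDC25A amounted to 0.235 to 0.291 of CDC25B in untreated libraries and to 0.00845 to 0.0414 after triptolide, again without overlap. By contrast, CDC25B stayed at 0.726 to 0.889 of CDK1 without drug and 0.753 to 0.805 with it, so these mRNAs kept their proportion while both fell. CDK2 gained on CDK1, from 0.407 to 0.510 of its level per kb in untreated libraries to 0.586 to 0.779 in treated ones. The ratio of WEE1 to CDC25A, the 2 deeply lost transcripts, overlapped between untreated libraries (0.451 to 0.702) and treated ones (0.285 to 2.33). Treated NONT libraries had ratios of 0.624 and 2.33, NUP93-KO libraries 0.657 and 0.905, and EXOSC5-KO libraries, the lowest, 0.349 and 0.285. The highest ratio, 2.33, came from the library with roughly 13 reads for CDC25A.

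**Figure D3:**
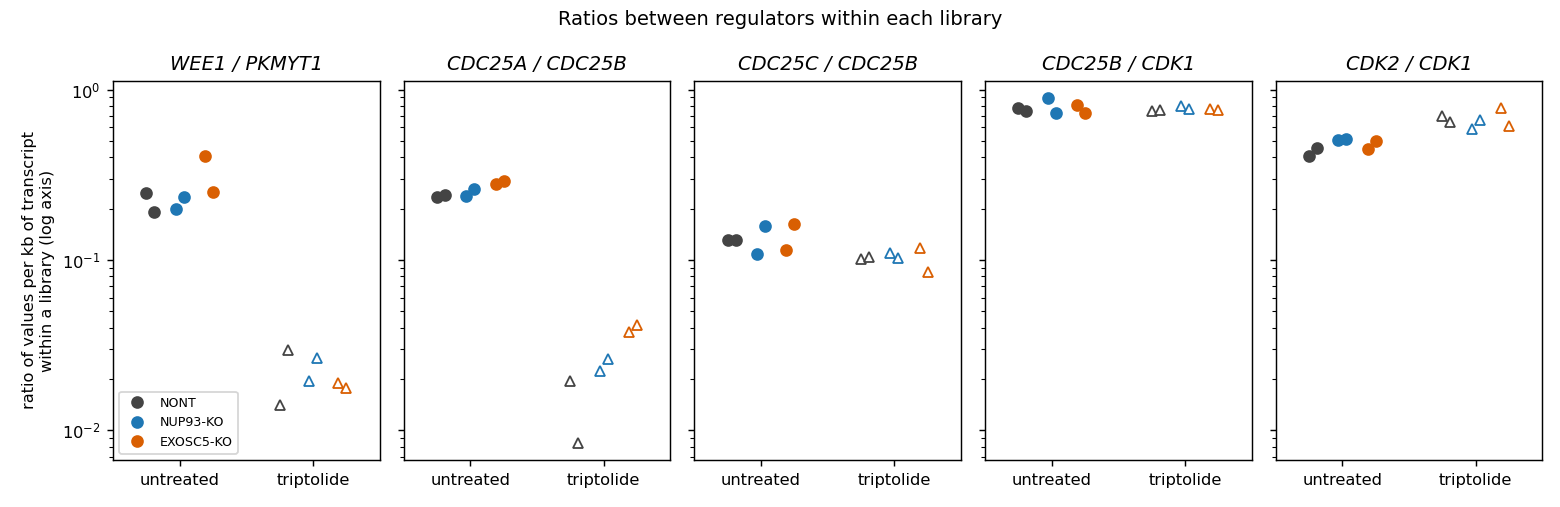
Each panel plots the ratio of 2 genes per kb of transcript within a library, on a log axis, for untreated (filled circles) and triptolide (open triangles) libraries, coloured by genotype. WEE1 over PKMYT1 and CDC25A over CDC25B drop without overlap after triptolide, CDC25B over CDK1 stays between 0.726 and 0.889, and CDK2 over CDK1 rises.

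The ATTTA pentamer (AUUUA in RNA), the core of AU-rich elements known for marking short-lived mRNAs, was counted on the sense strand of the spliced 3′ untranslated region (UTR) of the main annotated transcript, overlapping copies included. WEE1 had 1 copy in 1383 bases, PKMYT1 0 in 145, CDC25A 4 in 1799, CDC25B 1 in 1154, CDC25C 0 in 423, CDK1 5 in 877, CDK2 2 in 1164 and CHEK1 9 in 1827. Among these 8 genes the counts were not in the order of the losses. WEE1 had as many copies as CDC25B, and CHEK1 and CDK1 had more than CDC25A. A part of the pentamer in the losses was not tested. At least 1 copy was found in 74.3% of 12933 tested genes with an annotated 3′ UTR, at least 4 in 40.7% and at least 9 in 18.4%, and UTR length was not matched in these shares. The sites of the 2 deeply lost transcripts, and for comparison the overlapping pair of CHEK1, are shown 5′ to 3′ on the transcribed strand with the pentamer in capitals. A match describes letters and not a bound site, and the absence of a match in PKMYT1 and CDC25C says only that these letters are not in that UTR.
WEE1, chr11:9589926-9589946, plus strand: atgatgtaATTTAaaatatct
CDC25A site 1, chr3:48158501-48158521, minus strand: tatgtttaATTTAttcaactt
CDC25A site 2, chr3:48158366-48158386, minus strand: ggcttttaATTTAaaaaaaaa
CDC25A site 3, chr3:48158252-48158272, minus strand: ctgctgctATTTAagccaaga
CDC25A site 4, chr3:48157146-48157162, minus strand: cttgatggATTTAagga
CHEK1 site 6, chr11:125656899-125656919, plus strand: gctctgacATTTATTTAtctg
The last CDC25A window is shorter because the transcript ends there, and the CHEK1 window holds 2 copies that share an A. Across all tested genes, the median log2 fold change in NONT was −1.38 with no copy, −1.58 with 1 copy, −1.74 with 2 to 4, −1.77 with 5 to 8 and −1.77 with 9 or more. WEE1 at −5.004 and CDC25A at −6.07 lay well under the lower quartiles of their classes, −2.67 and −2.90.

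Without drug, no transcript of the switch was called between genotypes on the deposited scale. In NUP93-KO against NONT, none of the 8 genes passed the threshold, where 0.0217% of all genes did in either direction. All 8 log2 differences were below 0, as were those of 63.8% of tested genes. They ran from −0.30 (CDK1, 95% confidence interval −0.74 to 0.14) to −0.06 (CDK2, −0.57 to 0.44). The sign of CDK2 turned positive under each of 3 other scalings. Signs of other members also rest on NONT untreated replicate 2. PKMYT1 (1053 and 959.6), CDC25A (652 and 729), CDC25B (2245 and 2270.3) and CDK2 (911 and 1146) in NUP93-KO were above NONT replicate 1 (874, 639, 2209 and 824).

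EXOSC5-KO against NONT gave the larger differences, all 8 below 0 on the deposited scale, where 40.5% of tested genes were below 0. PKMYT1 was the lowest, at 634 and 639 against 874 and 1348 in NONT (log2 difference −0.77 ± 0.24, unadjusted p = 0.00492, adjusted p = 0.276 by limma). CHEK1 followed at −0.48, CDK1 and CDC25B at −0.47, CDC25C at −0.41, CDK2 at −0.33, WEE1 at −0.22 and CDC25A at −0.21. None passed the threshold, beside 0.521% of all genes in either direction, although CDC25B did without NONT untreated replicate 1 (−0.74, adjusted p = 0.0465). The signs of CDC25A and CDK2 rest on NONT replicate 2 (without it, log2 differences of 0.076 and 0.039) and that of WEE1 on EXOSC5-KO replicate 2 (0.13 without it). Where libraries were put on a common total, on the median of ratios or on a common sum of mitochondrially encoded mRNAs, PKMYT1 (−0.80, −0.87 and −1.15), CDC25B (−0.50, −0.57 and −0.85) and CDK1 (−0.50, −0.57 and −0.85) did pass. In those fits 674, 802 and 795 of all genes passed, against 72 on the deposited scale. Other cell cycle transcripts lay on the same side: of 15 S phase genes such as MCM2 and PCNA 15 were below 0, with a median of −0.35, and of 15 mitosis genes such as TOP2A and AURKB 14 were, with a median of −0.48, while the median of all genes was 0.07. None of those 30 genes passed the threshold on the deposited scale. In bulk RNA, fewer cells in a cell cycle phase and less of the mRNA per cell cannot be told apart.

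**Figure D4:**
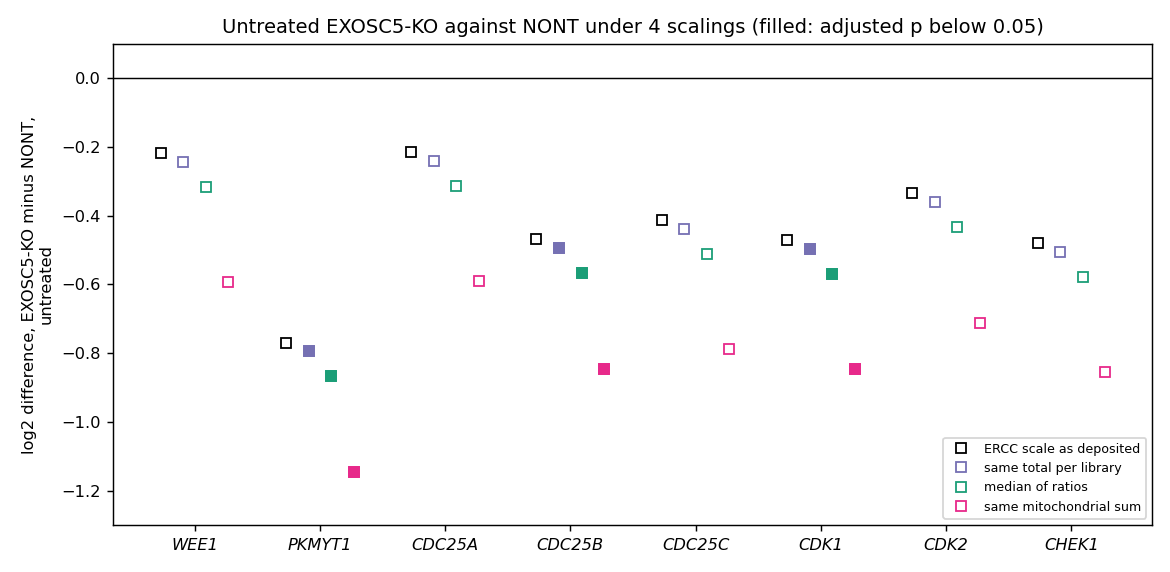
Squares give the log2 difference between untreated EXOSC5-KO and NONT cells for each gene under 4 scalings of the libraries, filled where the adjusted p was below 0.05. All 32 points lie below 0, and PKMYT1, CDC25B and CDK1 are filled under the 3 scalings other than the deposited one.

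The knockouts served in the study to keep mRNA from being lost once RNA polymerase II is degraded, and the difference in triptolide response between genotypes was therefore tested directly. Both differences against NONT use the same NONT libraries and are not independent of each other. None of the 8 genes passed the threshold in NUP93-KO minus NONT, in EXOSC5-KO minus NONT or in EXOSC5-KO minus NUP93-KO, where 0.775%, 0.333% and 0.0217% of all genes did. On the deposited scale the log2 differences, positive for a smaller loss in the knockout, ran from 0.25 (CDK2) to 1.37 (CDC25A) in NUP93-KO and from 0.033 (WEE1) to 1.85 (CDC25A) in EXOSC5-KO, and those of all genes had medians of 0.74 and 0.57, but under a common total 6 of the 8 turned negative in NUP93-KO and 3 of the 8 in EXOSC5-KO. CDC25A had the largest difference of the 8 in both knockouts, with 89.5% (NUP93-KO) and 96.4% (EXOSC5-KO) of tested genes lower. Its difference was 1.37 ± 0.51 (SE) in NUP93-KO, with an adjusted p of 0.0803 by limma. In EXOSC5-KO it was 1.85 ± 0.51, with an adjusted p of 0.134. The difference of CDC25A remained positive in each of 22 alternative fits, between 0.66 and 2.00 in NUP93-KO and between 1.22 and 2.48 in EXOSC5-KO. That was not particular to CDC25A. CHEK1 also stayed positive in all 22, between 0.30 and 1.41 in NUP93-KO and between 0.12 and 1.04 in EXOSC5-KO. PKMYT1 and CDC25B did so in EXOSC5-KO. CHEK1 was next in NUP93-KO, at 1.07 ± 0.40 with an adjusted p of 0.0796.

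For WEE1 the difference between EXOSC5-KO and NONT was 0.033 on the log2 scale, with a 95% confidence interval of −1.06 to 1.12, and the share kept was 2.84% against 2.91%. Against NUP93-KO, the response in EXOSC5-KO differed by −0.68 for WEE1 (interval −1.77 to 0.41) and by 0.48 for CDC25A (interval −0.60 to 1.56), and neither passed the threshold.

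These differences depend on the NONT libraries. Without NONT untreated replicate 1, CDC25A, CHEK1, CDK1, CDC25B and PKMYT1 passed the threshold in NUP93-KO minus NONT, and CDK2 as well as these in EXOSC5-KO minus NONT, but so did 7072 and 5313 of all genes, against 107 and 46 with it. Without NONT untreated replicate 2, no gene passed in either. Leaving out NONT triptolide replicate 1 also brought CDC25A past the threshold (2.00, adjusted p = 0.0173, in NUP93-KO and 2.48, adjusted p = 0.0136, in EXOSC5-KO), with 2491 and 410 calls over all genes.

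The genes with the most similar profiles were sought among 10373 others with an untreated mean of at least 100, by the root mean square distance between log2 profiles over 12 libraries, each centred on its own mean. The 8 genes fell into 2 sets in this measure. CDC25B and CDK1 were 0.076 apart, while WEE1 and CDC25A were 0.68 apart from each other and at least 1.44 from each of the other 6. DNAJC9, a histone chaperone, was nearest to both CDC25B (0.074) and CDK1 (0.078), followed by MELK (0.091) and SRSF2 (0.093) for CDC25B and by TMPO (0.10) and KLHDC3 (0.11) for CDK1. PKMYT1 was nearest to ESPL1, which encodes separase (0.14), then CACNB3 and UBE2S. CDC25C was nearest to the spindle factor TPX2 (0.16), then EZH2 and PCNA, and CHEK1 to the spindle protein TACC3 (0.16), then SYTL5 and TPX2. CDK2 was nearest to YIPF4 (0.12), then TUBB and TUBA3C. WEE1 was nearest to FZD2, a Wnt receptor, at 0.19, then PRUNE1 and MTRFR, and CDC25A to IRF2BP1 at 0.21, then PIAS1 and POP7. Treatment sets most of each profile, so this likeness is mainly one of how much was lost.

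Around the switch, 58 further genes of CDK1 control were followed, from cyclins to the ubiquitin ligases that remove them. All 58 were called lower in NONT on the deposited scale, with 44 called in NUP93-KO, 50 called in EXOSC5-KO and none called higher, beside the shares of all genes given above. Their median log2 fold changes, −2.33, −1.72 and −1.77, were below the all-gene medians of −1.62, −0.92 and −1.08. By role, the medians in NONT were −4.16 for 4 CDK inhibitors, −3.79 for 4 polo and aurora genes, −3.07 for 7 ubiquitin ligase genes, −2.99 for 5 cyclins and −1.11 for 7 genes of 14-3-3 proteins, which bind phosphorylated CDC25. Of the lists of S phase and mitosis genes, all 15 in each were called lower in NONT, with medians of −1.62 and −2.31.

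FBXO5, an inhibitor of the anaphase-promoting complex, had the deepest loss of those with an untreated mean of at least 100, from 598 and 903 in untreated NONT to 1.24 and 2.52, a log2 fold change of −8.03. CDKN1B, the CDK inhibitor p27, went from 363 and 399.9 to 0 and 3.96 (−7.42), ETAA1, an activator of ATR, from 145 and 246 to 0.987 and 3.01 (−6.07), CDK7, the CDK-activating kinase, from 248 and 574 to 8.25 and 4.87 (−5.68), and E2F3 from 359.7 and 524 to 11.7 and 11.4 (−5.12). At the other end were TIMELESS (−0.79), ARPP19 (−0.87), CKS1B (−0.88), YWHAE (−0.96) and ENSA (−0.97), all lower on the deposited scale and all higher under a common total or the median of ratios. ENSA and ARPP19 encode the substrates through which Greatwall kinase inhibits PP2A, and CKS1B a small subunit of CDK complexes. The deepest losses of this list included an inhibitor of CDKs, CDKN1B, and their activating kinase, CDK7.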

How the data were processed

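Per the labels and the study's methods, the authors pseudoaligned stranded, poly(A)-selected reads to GRCh38 transcripts and ERCC sequences with kallisto 0.46.1, summarised them per gene with tximport and divided by DESeq2 size factors estimated on the 92 ERCC transcripts. The Ensembl release is not given in the sources used here. The deposited values are thus a signal scaled to spike-ins, not read counts, and an error in cell counting or spike-in volume moves all genes of a library together. Whole reads could not be recovered, so no count model was used. The reads behind a value were approximated from the most frequent low value of a library, and they cover counting error only.

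Values were analysed as log2(value + 1) with limma 3.58.1 in R 4.3.3 (6 group means over 12 libraries, eBayes with a mean-variance trend, two-sided, Benjamini-Hochberg over 13811 genes with an untreated mean of at least 10, threshold 0.05), after tests on simulated data. Alternatives were 3 other scalings, pseudocounts of 0.1 and 8, no filter or a mean of 50, no trend, fewer groups, a replicate block and each library left out. Positions and UTRs came from GENCODE 44 (GRCh38), which matched 19584 of 22379 gene IDs. Named were the 8 genes, the guide targets, the 3 nearest profiles of each, and of 58 pathway genes with an untreated mean of at least 100 the 5 lowest and 5 highest in NONT plus any called between genotypes. VIM, COL1A2 and other markers, and MCM2, PCNA, TOP2A, AURKB, STT3A and the members of the lists mentioned beside their counts, serve as context. The genes and lists were chosen with earlier results of these data known. Python 3.11.15 was used for summaries.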

Additional observations from a re-analysis of the deposited data

Results flagged for a closer look

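Of the 58 further genes of CDK1 control, the difference in triptolide response from NONT passed the threshold in limma for 3 in NUP93-KO, beside 0.775% of all genes, and for 1 in EXOSC5-KO, beside 0.333%. CDK7 fell less in NUP93-KO, from 246 and 117 to 48.1 and 48.4, than in NONT, a log2 difference of 3.89 with an adjusted p of 0.0271. A lower start enters that difference: untreated CDK7 was at 248 and 574 in NONT. The untreated log2 difference of NUP93-KO from NONT was −1.15 (95% confidence interval −2.14 to −0.16), not past the threshold. GADD45A, a stress-induced CDK1 inhibitor, was at 854 and 1049 untreated and 143 and 155 treated in NUP93-KO, where NONT had 645 and 935 untreated and 25.3 and 22.5 treated, a difference of 2.31 (adjusted p = 0.0124). E2F3 went from 384 and 404 to 45.3 and 48.9 in NUP93-KO, a difference of 2.08 (adjusted p = 0.0452). ETAA1 went from 181 and 148 to 19.8 and 34.7 in EXOSC5-KO, a difference of 3.48 (adjusted p = 0.0446). Of 22 alternative fits, the call was lost in 7 for CDK7, 4 for GADD45A, 16 for E2F3 and 14 for ETAA1. All 3 other scalings lost CDK7, E2F3 and ETAA1, the replicate block lost E2F3 and ETAA1, and the common mitochondrial sum lost GADD45A. Without NONT untreated replicate 2 all 4 calls were lost, with differences of 3.28, 2.04, 1.81 and 3.10 in the order given.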

How the results depend on the processing

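On the deposited scale WEE1, CDC25A, CDC25B, CDC25C and CDK1 stayed past the threshold after triptolide in every genotype under all 22 alternatives. Scaling moved the split of calls after triptolide. Calls in NONT, 12434 on the deposited scale (12427 lower, 7 higher), numbered 7375 (5270 lower, 2105 higher) under a common total and 7917 (4213 lower, 3704 higher) under the median of ratios. NUP93-KO had 5430 lower and 1922 higher, then 4149 and 3618, and EXOSC5-KO 5078 and 2027, then 3992 and 3562. A common mitochondrial sum instead left NONT with 11216 lower against 11 higher, NUP93-KO with 10568 against 10, and EXOSC5-KO with 10378 against 6. CDK2 in NONT turned to 0.012 and 0.31, and under the median of ratios PKMYT1 and CDK2 in EXOSC5-KO to 0.098 and 0.21. In NONT under a common total TIMELESS, ARPP19, CKS1B, YWHAE and ENSA turned to 0.55, 0.47, 0.46, 0.38 and 0.37, and under the median of ratios to 0.85, 0.77, 0.76, 0.68 and 0.67. CDK2 in untreated NUP93-KO against NONT was 0.050, 0.0060 and 0.0037 under a common total, the median of ratios and a common mitochondrial sum.

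Differences in response turned as follows. In NUP93-KO minus NONT, a common total gave −0.020 for WEE1, −0.18 for PKMYT1, −0.17 for CDC25B, −0.10 for CDC25C, −0.17 for CDK1 and −0.51 for CDK2, the median of ratios −0.16, −0.15, −0.081, −0.15 and −0.49 for the last 5, and the mitochondrial sum −0.075, −0.059, −0.062 and −0.41 for PKMYT1, CDC25B, CDK1 and CDK2. In EXOSC5-KO minus NONT, a common total gave −0.49 for WEE1, −0.050 for CDC25C and −0.074 for CDK2, the median of ratios −0.51, −0.075 and −0.10 with −0.00046 for CDK1, and the mitochondrial sum −0.36 for WEE1. The cause was not tested.

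Counts between genotypes were unstable. For untreated NUP93-KO against NONT, 3 calls became 134, 130 and 16 under the 3 scalings, 16 with a pseudocount of 8, 8 with a minimum mean of 50, 1 without the trend and 69 with the groups compared alone. For EXOSC5-KO against NONT, 72 became 674, 802 and 795, 47 with a pseudocount of 0.1 and 155 with the groups compared alone. For NUP93-KO minus NONT, 107 became 2, 2 and 2, 36 with a pseudocount of 0.1, 4 without the filter, 1056 with a mean of 50 and 0 without the trend. For EXOSC5-KO minus NONT, 46 became 9, 11 and 2, 29 and 10 with pseudocounts of 0.1 and 8, 6 without the filter, 79 with a mean of 50 and 4 without the trend. For EXOSC5-KO minus NUP93-KO, 3 became 8, 8 and 1, 6 with a pseudocount of 8 and 1 with the groups compared alone. Same-numbered replicates did not deviate together (0 of 15 pairs of groups above a correlation of 0.1). The replicate block gave 43 and 16 calls for the differences of NUP93-KO and EXOSC5-KO from NONT and changed no call of the 8 genes, while the calls of E2F3 and ETAA1 were lost (adjusted p = 0.0547 and 0.0534).

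With each library left out (a lone library being assumed to vary like the other groups), calls ranged from 10979 to 12459 in NONT, 5884 to 8357 in NUP93-KO and 6985 to 9850 in EXOSC5-KO after triptolide, from 3 to 16 and 20 to 198 for untreated NUP93-KO and EXOSC5-KO against NONT, and from 0 to 7072, 0 to 5313 and 3 to 18 for the 3 differences. In untreated EXOSC5-KO against NONT, WEE1 ranged from −0.56 to 0.13, CDC25A from −0.50 to 0.076 and CDK2 from −0.71 to 0.039. CDK2 ranged from −0.44 to 0.31 in untreated NUP93-KO against NONT and from −0.12 to 0.63 in NUP93-KO minus NONT, and WEE1 from −0.31 to 0.38 in EXOSC5-KO minus NONT. Treated WEE1 and CDC25A values rest on few reads.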
